A study of Equus caballus with 13 samples.

Results

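The nuclear-encoded subunits of the mitochondrial respiratory chain were followed in chondrocytes, the resident cells of cartilage, from horses (Equus caballus). Members were taken by name from the authors' RNA kinetics tables: the NDUFA, NDUFB, NDUFC, NDUFS and NDUFV genes, SDHA to SDHD, the UQCR genes, COX4 to COX8, the ATP5 genes, CYC1 and CYCS, with assembly factors left out. The same 59 genes were found in the age table, which listed 11056 genes, and in the sex table, which listed 11249. They comprised 26 genes of complex I, 4 of complex II, 5 of complex III including CYC1, cytochrome c (CYCS), 10 of complex IV and 13 of complex V. Among RefSeq symbols for the horse 85 names fit the rule; the other 26 were not analysed here. NDUFA4 and its paralogue NDUFA4L2 were counted with complex IV, since the NDUFA4 protein is known as a subunit of cytochrome c oxidase.

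The samples were wild-type chondrocytes freed from cartilage, cultured, and given 4-thiouridine (4sU) for 4 h, a uridine analogue that marks RNA made during labelling. There were 5 samples from old females, 5 from young females and 3 from young males, and ages in years were not given. The purpose stated for the series was to learn how post-transcriptional regulation varies with age and with sex, so old female was compared with young female and young male with young female. The same young female samples served as reference for both comparisons. Of 12 labelled batches over 13 samples, batch 10 alone spanned 2 groups, with a young female and a young male, so batch and group cannot be told apart.

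The respiratory chain sits in the inner mitochondrial membrane. Complex I (NADH dehydrogenase) and complex II (succinate dehydrogenase) feed electrons to ubiquinone, complex III (cytochrome bc1) passes them to cytochrome c, complex IV (cytochrome c oxidase) hands them to oxygen, and complex V (ATP synthase) uses the resulting proton gradient to make ATP. Apart from complex II, each complex also holds subunits encoded in mitochondrial DNA, so its assembly needs products of both genomes. Cartilage has no blood vessels and little oxygen, and chondrocytes are known for drawing much of their ATP from glycolysis.

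Each table gave 1 synthesis rate and 1 half-life per gene and group. Half-lives were read as hours, and synthesis rates are in arbitrary units that are not stated to be per transcript length, so single genes were not compared with each other in them. Sums over marker lists and a filter on low synthesis rates do mix genes on this scale. Their product divided by ln 2 is called the implied level, also in arbitrary units. Depth is unknown, and with no values per sample none of the differences below has a replicate error or a test. What can be given is the repeat of the young female estimate in the second table, which shares its reads. For all 59 members the 2 young female half-lives differed by less than 0.10 on the log2 scale, NDUFS7 by the most (11.3 h in the age table, 10.5 h in the sex table). Implied levels of the members were lower in the sex table by 0.07 on the log2 scale, and after that offset they differed between tables by at most 0.00074.

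All 10 chondrocyte markers checked, among them COL2A1, ACAN and SOX9, were listed in both tables. Their summed implied level was 0.912-fold in old cells and 2.51-fold in male cells, relative to young female cells. Single genes ran from 0.497-fold (HAPLN1) to 1.77-fold (COMP) in old and from 0.948-fold (SOX9) to 3.99-fold (COL9A1) in male cells. The fibroblastic list had a sum of 0.47-fold in old cells (5 of 6 listed), from 0.138-fold (COL1A1) to 0.66-fold (PDGFRA). In male cells its sum was 2.48-fold (6 of 6), from 0.611-fold (PDGFRA) to 18.3-fold (COL1A1). Of the bone list 4 of 5 were listed, with sums of 1.63-fold in old cells, from 0.627-fold (ALPL) to 1.71-fold (IBSP), and 2.38-fold in male cells, from 1.26-fold (RUNX2) to 6.10-fold (ALPL). The lists for endothelium, leucocytes, muscle, fat and synovial lining had 1 listed gene each (VWF, CD14, DES, FABP4 and HAS2). The implied levels of these 5 genes were between 0.91-fold and 1.34-fold in old cells and between 0.75-fold and 2.83-fold in male cells. No listed marker was at 0. The part of these shifts in the results below was not tested, and in bulk cultures fewer cells of a type cannot be told apart from less RNA per cell.

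Respiratory chain messages were long-lived. In young female cells they had a median of 16.0 h and quartiles of 10.1 and 20.8 h, against 3.64 h for all genes of the age table, and 48 of the 59 lay above the 75th percentile of all genes, 8.67 h. The picture was alike in the other groups, with member medians of 15.8 h in old female and 23.6 h in young male cells, where the medians of all genes were 3.43 h and 4.63 h. In each group 58 of the 59 members were above the median of all genes. The exception was UQCRFS1 every time. It encodes the Rieske iron-sulfur protein that carries electrons within complex III, and its half-life was 2.07 h in young female, 1.79 h in old female and 3.04 h in young male cells. The next shortest in young female cells was that of NDUFV3, an accessory subunit of complex I, at 4.82 h, so a gap separated UQCRFS1 from all other members. Half-lives over 24 h, beyond what 4 h of labelling resolves well, were listed for 14 members in the young female group, 10 in the old female group and 26 in the young male group.

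**Figure D1:**
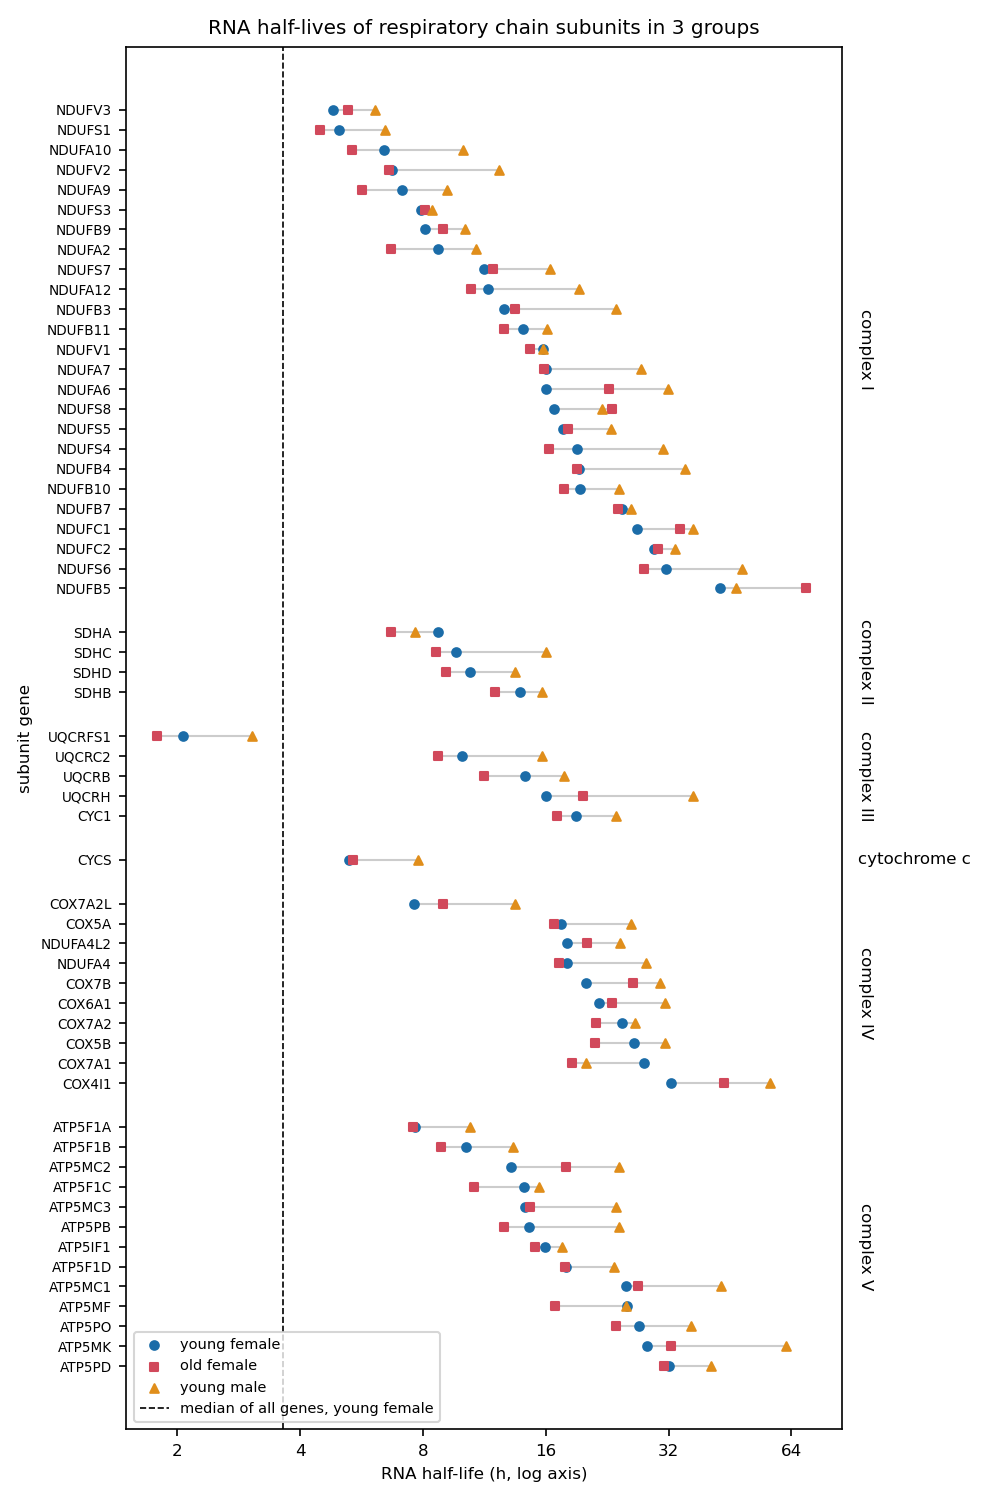
RNA half-life in hours (log axis) of 58 of the 59 subunit genes, ordered within each complex by the young female value of the age table; circles are young female, squares old female and triangles young male cells, 1 group value each. The dashed line is the median of all genes in young female cells, 3.64 h; UQCRFS1 alone lies to its left, and most triangles lie to the right of the circles.

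Within complex I, half-lives in young female cells spanned 4.82 h (NDUFV3) to 42.7 h (NDUFB5). The 7 core subunits, which carry the flavin, the iron-sulfur clusters and the ubiquinone site, had a median of 11.3 h, and the 19 accessory subunits one of 16.0 h. NDUFS1, the largest core subunit, was the shortest-lived of the core at 4.97 h, followed by NDUFV2 at 6.73 h and NDUFS3 at 7.93 h. NDUFV1, which binds the flavin, was at 15.8 h and NDUFS8 at 16.8 h. Core and accessory ranges overlapped, and the medians were 11.9 and 16.3 h in old cells and 15.8 and 24.2 h in male cells. NDUFB5 was listed at the ceiling of 69.3 h in old cells, a value that can only be read as very long.

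All 4 subunits of complex II, the succinate dehydrogenase shared with the tricarboxylic acid (TCA) cycle, were listed. In young female cells their half-lives were 8.71 h for SDHA, the flavoprotein, 13.9 h for SDHB, the iron-sulfur protein, and 9.66 and 10.4 h for the membrane anchors SDHC and SDHD. In male cells the range was wider, from 7.65 h for SDHA to 16.1 h for SDHC. In complex III, UQCRC2, a core protein, was at 9.99 h, UQCRB at 14.2 h, UQCRH, the hinge protein, at 16.1 h and CYC1, the cytochrome c1 haem protein, at 19.0 h. CYCS, the mobile carrier between complexes III and IV, was shorter-lived, at 5.28 h in young female, 5.40 h in old female and 7.78 h in male cells. The 2 electron carriers UQCRFS1 and CYCS thus stood at the short end beside their long-lived partner CYC1.

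Complex IV had the longest median half-life of the 5 complexes in each group: 20.8 h in young female, 20.7 h in old female and 27.4 h in male cells. COX4I1, the regulatory subunit that binds ATP, was the longest-lived of its members in all 3 groups, at 32.4, 43.8 and 56.8 h in that order. COX7A2L, which is known as a factor that joins complexes III and IV into supercomplexes, was the shortest at 7.62, 8.94 and 13.4 h.

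In complex V half-lives differed by position in the enzyme. The 4 listed subunits of F1, the head that makes ATP with its central stalk, had young female half-lives of 7.63 h (ATP5F1A), 10.2 h (ATP5F1B), 14.2 h (ATP5F1C) and 17.9 h (ATP5F1D), with a median of 12.2 h. The 8 subunits of the peripheral stalk and membrane part had a median of 25.2 h, from 13.2 h for ATP5MC2 to 32.1 h for ATP5PD. That median is beyond 24 h, where 4 h of labelling does not resolve well, and ATP5MC2, ATP5MC3 and ATP5PB lay inside the range of F1. The medians of F1 and of these 8 were 9.76 and 20.9 h in old cells and 14.3 and 30.8 h in male cells. The order thus held in each group. Ranges overlapped in young and old female cells, while in male cells F1 ended at 23.6 h (ATP5F1D) and the others began at 23.7 h (ATP5MC3). ATP5MC1, ATP5MC2 and ATP5MC3 encode the same mature c-ring protein from separate genes. Their half-lives nevertheless ran from 13.2 h (ATP5MC2) and 14.2 h (ATP5MC3) to 25.2 h (ATP5MC1) in young female cells. How reads shared by such paralogues were counted is not given in the sources used here. ATP5IF1, the peptide that inhibits the enzyme when it runs in reverse, was at 16.0 h.

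With age the respiratory chain genes stayed within a narrow band. As listed, none of the 59 members was past a 2-fold ratio (absolute log2 ratio of at least 1) between old and young female cells in any of the 3 quantities. For NDUFB5, whose old half-life is at the ceiling, the listed log2 half-life ratio of 0.70 is a lower bound. Its call in half-life therefore cannot be settled, and the cap may bear on its synthesis rate as well. Of all genes listed, 3.53% were past it in half-life, 7.52% in synthesis rate and 4.12% in level. Half-lives had a median log2 ratio of −0.06 and were shorter in old cells for 37 of the 59 members, as for 63.1% of all genes, whose median was −0.08. Synthesis rates had a median of 0.04 and were higher for 34 of 59, as for 60.2% of all genes (median 0.08). The median of the implied level was −0.03, with 27 of 59 higher, beside 0.00 for all genes. The member medians of synthesis rate and implied level are no larger than the offset of 0.07 that both quantities had between the tables; half-lives had an offset of −0.0013. The median of the implied level became 0.03 when the ratio was taken to the young female column of the sex table. The members also varied little among themselves. The SD of their log2 ratio of implied level was 0.16, compared with 0.44 for all genes, and none of the 59 reached 0.5 in size, beside 15.6% of all genes. In young female cells 51 of the 59 had implied levels above the median of all genes. The spread among other genes of like level was not computed, so the narrow band is not shown to be particular to the members. At that lower threshold 4 members were past it for half-life (COX7A1, ATP5MF, NDUFA6 and NDUFB5), where the share of all genes was 13.4%, and 4 for synthesis rate (NDUFB5, NDUFS8, NDUFA2 and COX7A1), where it was 23.0%. Of these, COX7A1, ATP5MF and NDUFB5 had young female half-lives beyond 24 h.

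By log2 ratio, the largest age differences in half-life were those of NDUFB5, from 42.7 h to the ceiling (a lower bound), NDUFA6, an accessory subunit of complex I, from 16.0 to 22.8 h, and NDUFS8, an iron-sulfur core subunit, from 16.8 to 23.3 h. The largest in the other direction were those of ATP5MF, a small membrane subunit of ATP synthase, from 25.3 to 16.8 h, COX7A1 from 27.9 to 18.6 h, and ATP5F1C, the central stalk subunit of F1, from 14.2 to 10.7 h. The young female half-lives of NDUFB5, ATP5MF and COX7A1 lay beyond 24 h, where 4 h of labelling does not resolve them well. In all 6 genes named above the synthesis rate moved the opposite way. It went from 27.1 to 17.2 (listed with the capped half-life) for NDUFB5, from 117.6 to 78.9 for NDUFS8 and from 18.1 to 29.7 for COX7A1. Between the 2 young female estimates, implied levels of the members differed by at most 0.00074 after the offset. NDUFB5 had log2 differences there of 0.08 in half-life and −0.15 in synthesis rate, offset included. An error in half-life would thus enter the synthesis rate with the opposite sign, and its part in these 6 genes was not tested. The log2 ratio of implied level was −0.11 for NDUFS8 and 0.13 for COX7A1, each much smaller than its 2 components. That of NDUFB5 was listed at 0.05, with its old half-life capped. In NDUFA6 and ATP5MF it was closer to them: NDUFA6 had a ratio of 0.24 beside −0.27 in synthesis rate, and ATP5MF one of −0.28 beside 0.31. ATP5F1C was at −0.07 beside 0.34 in synthesis rate. NDUFA2 (synthesis rate 35.2 in young and 50.4 in old cells), UQCRB (88.5 and 112.7) and NDUFC1 (17.4 and 12.9), the remaining extremes of synthesis rate, had log2 level ratios of 0.14, 0.02 and −0.08. Of the genes named here, all but NDUFS8 and ATP5F1C had young female synthesis rates below the 25th percentile of all genes, 110.9.

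Opposite signs of the 2 parameters were about as frequent among the members as among all genes. In 44 of the 59 members (74.6%) the ratios of synthesis rate and half-life had opposite signs in the age comparison, and the Spearman correlation between them was −0.77 across the members. Over all genes 70.8% had opposite signs and the correlation was −0.53. In the sex comparison 44 of 59 members had opposite signs as well, beside 77.0% of all genes, with correlations of −0.84 and −0.55. Both parameters of a gene come from the same reads, and an error in half-life would enter the synthesis rate with the opposite sign. The correlation is therefore a description and carries no test.

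**Figure D2:**
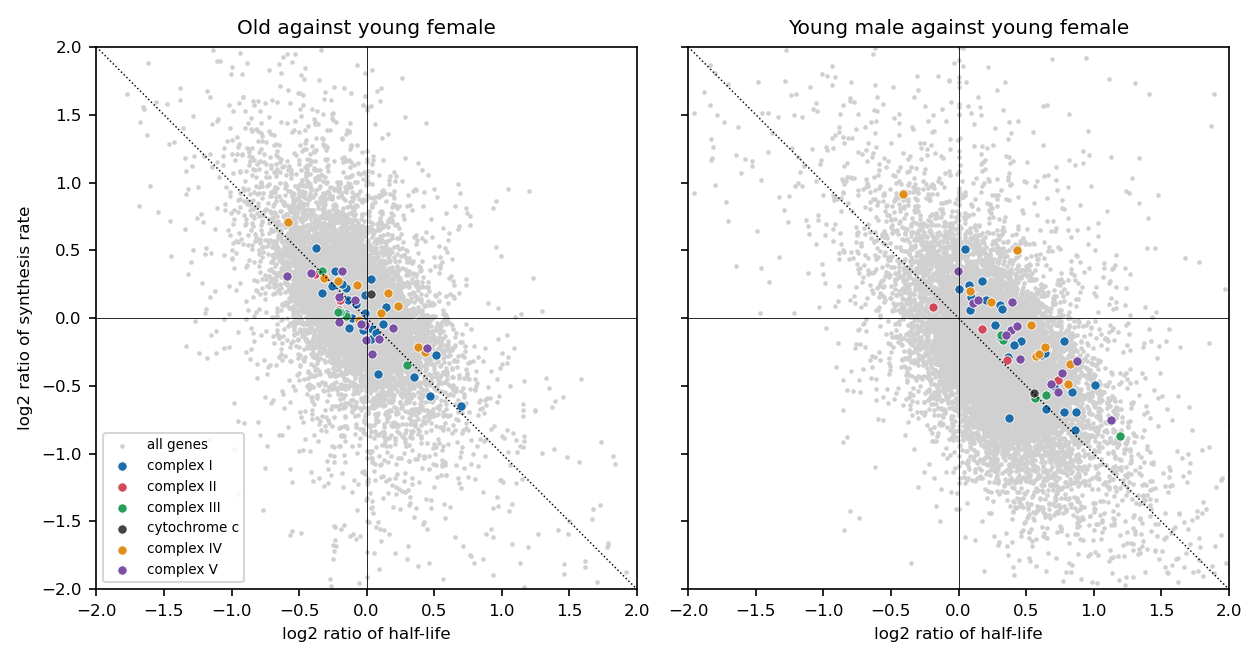
Log2 ratio of synthesis rate (vertical) against log2 ratio of half-life (horizontal) for old against young female (left) and young male against young female (right), with all genes in grey and the 59 members coloured by complex. On the dotted diagonal the implied level is unchanged; axes end at a log2 ratio of 2, and 289 genes (left) and 334 genes (right) lie outside. Members follow the diagonal in the left panel and lie mostly above it in the right panel.

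Levels of the complexes differed in sign in the age comparison. Complex IV had a median log2 ratio of implied level of 0.16, with 8 of 10 genes higher in old cells, against a share of 50.7% of all genes above 0. Complex II had a median of −0.10 (4 of 4 lower) and complex III one of −0.14 (4 of 5 lower), where 49.3% of all genes were below 0. Complex I (−0.01, 13 of 26 higher) and complex V (−0.06, 4 of 13 higher) lay between. Within complex I, 6 of the 7 core subunits were lower (median −0.11) and 12 of the 19 accessory subunits higher (0.05). With the young female column of the sex table as reference all complexes shift upward together, to 0.23 for IV, −0.03 for II, −0.08 for III, 0.06 for I and 0.00 for V, so that 2 of 4 genes of complex II and 2 of 5 of complex III were then higher. The order of the complexes was kept and the signs of complexes I and V were not. When each gene was instead set against the median of its half-life decile (over the 10974 genes in both tables, ordered by young male half-life, which did not enter the ratio), the median of complex IV fell to 0.10 (8 of 10 above 0), beside −0.03 for I (11 of 26), −0.07 for V (4 of 13), −0.09 for II (0 of 4) and −0.14 for III (1 of 5). Within complex I, the other young female column gave −0.04 for the core (2 of 7 higher) and 0.11 for the accessory subunits (15 of 19). Decile centring gave −0.09 for the core (1 of 7 above 0) and 0.003 for the accessory subunits (10 of 19).

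Of single genes, NDUFA4L2 (log2 level ratio 0.34), NDUFC2 (0.32) and COX7A2L (0.32) were highest in old cells. NDUFC2 is an accessory subunit of complex I. The lowest were NDUFB3 (−0.32), a further accessory subunit, ATP5MF (−0.28) and ATP5F1B (−0.24), the catalytic subunit of ATP synthase. ATP5F1B had a half-life of 10.2 h in young and 8.84 h in old cells and synthesis rates of 1896 and 1854. NDUFB3 had about the same half-life in young and old cells, 12.7 and 13.4 h, and synthesis rates of 39.5 and 29.7. CYCS had a log2 level ratio of 0.21 and CYC1 one of −0.14.

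**Figure D3:**
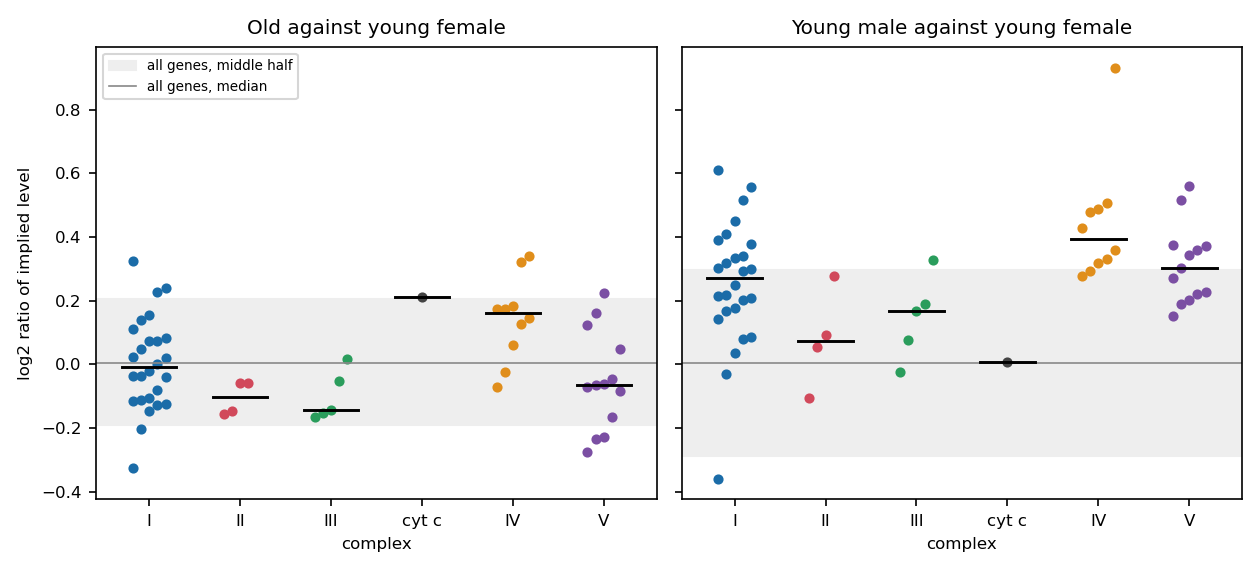
Log2 ratio of implied level of each member by complex (points) with the median of the complex (black bar), for old against young female (left) and young male against young female (right). The grey band and line are the interquartile range and median of all genes; complex IV has the highest median of the 5 complexes in both panels, 0.16 and 0.39.

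Between young male and young female cells the respiratory chain messages differed more. Half-lives were longer in male cells for 56 of the 59 members, with a median log2 ratio of 0.43 (1.35-fold). Half-lives were also longer for 77.3% of all genes, with a median of 0.27 (1.21-fold), so relative to that shift the members stood 0.16 higher and 43 of 59 were above it. Synthesis rates were lower for 41 of the 59 (median −0.17), as they were for 71.1% of all genes (median −0.28). Implied levels were higher in male cells for 55 of the 59 (median 0.29, or 1.23-fold), whereas 50.5% of all genes were higher and their median was 0.01. No member was past 2-fold for synthesis rate or implied level, beside 12.2% and 4.61% of all genes. At a log2 ratio of at least 0.5 in size, 26 members were past it for half-life (31.8% of all genes), 16 for synthesis rate (41.1%) and 7 for level (25.0%). All 26 half-lives were longer and all 7 levels higher in male cells, and 13 of the 16 synthesis rates were lower.

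For half-life 3 members were at least 2-fold longer in male cells, a share of 5.62% of all genes being so. UQCRH, with half-lives of 16.0 h in females and 36.7 h in males, had synthesis rates of 169.3 and 92.7. ATP5MK, a small membrane subunit of ATP synthase, had half-lives of 28.4 and 62.1 h and synthesis rates of 75.3 and 44.7. NDUFA6 had half-lives of 15.8 and 31.9 h and synthesis rates of 82.9 and 58.9; against its young female half-life in the age table, 16.0 h, it was not past 2-fold, which left 2 members past it. In all 3 the male half-life lay beyond 24 h, and after centring on the median of all genes none was past 2-fold. Their levels differed by log2 ratios of 0.33, 0.37 and 0.52. NDUFV2, a core iron-sulfur subunit with the second lowest ratio of synthesis rate, had half-lives of 6.75 and 12.3 h, synthesis rates of 549 and 309.1, and a level ratio of 0.04.

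The members whose half-lives were not longer in male cells were COX7A1 (26.7 h in female, 20.1 h in male), SDHA (8.73 and 7.65 h) and ATP5MF (25.3 and 25.2 h). Among levels, 4 of the 59 were lower in male cells. NDUFS1 had a log2 ratio of −0.36, with synthesis rates of 571.9 and 343.5 and half-lives of 4.97 and 6.45 h. SDHA was at −0.11, NDUFA10 at −0.03 and UQCRFS1 at −0.03. These 4 had young female half-lives under 9 h, as had 9 members with higher levels in male cells, from 0.01 for CYCS to 0.48 for COX7A2L. The highest ratios were those of NDUFA4L2 (0.93), NDUFA7 (0.61) and ATP5MC2 (0.56). NDUFA7, an accessory subunit of complex I, had half-lives of 15.9 and 27.4 h and synthesis rates of 66.6 and 59.1.

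The male difference in level followed half-life across the transcriptome. The 10974 genes found in both tables were ordered by their old female half-life, which did not enter the ratio, and divided into 10 groups of about equal size. The median log2 level ratio of all genes went from −0.35 in the group with the shortest half-lives to 0.43 in that with the longest, and 50 of the 59 members were in the 3 groups with the longest. After subtraction of each group's median, the members' median level ratio was −0.06 with 22 of 59 above 0, and their median half-life ratio was 0.0034 with 30 of 59 above 0. In the longest-lived group the 20 members had a median level ratio of 0.35 beside 0.43 for all its genes. In the next group the 22 members had 0.26 beside 0.29. The members' median level ratio was thus no higher than that of all genes of like half-life. The part that culture composition and estimation play in this slope was not tested.

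**Figure D4:**
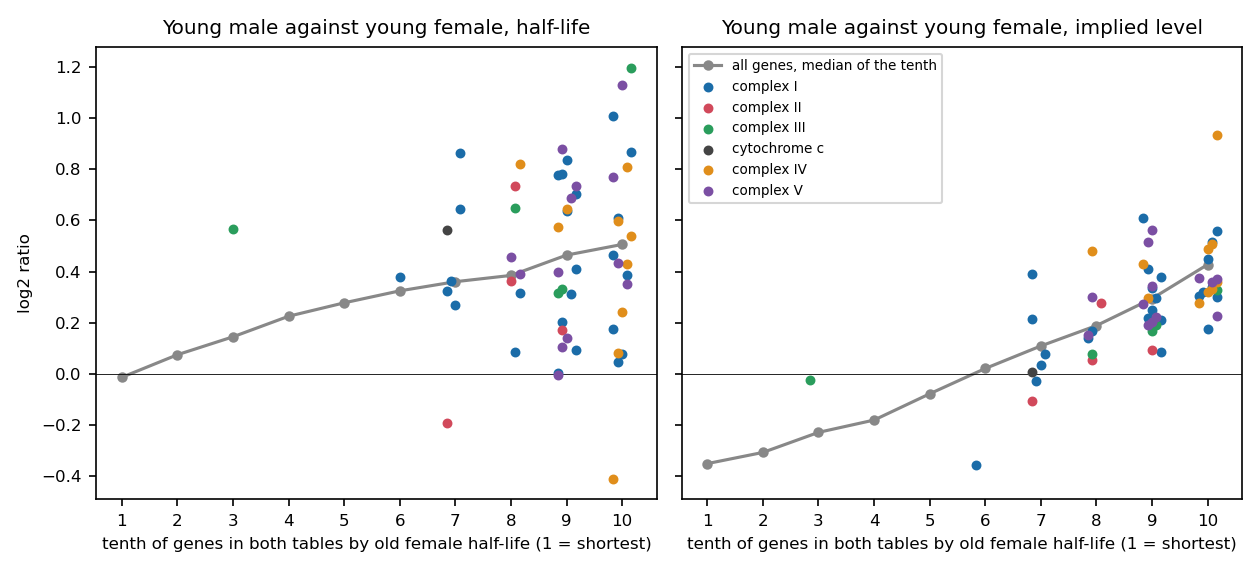
Log2 ratio of young male to young female half-life (left) and implied level (right) for the 59 members (coloured by complex) against the decile of the genes in both tables by old female half-life, 1 being the shortest; grey points and line are the median of all genes of a decile. The members gather in deciles 8 to 10 (50 of 59), where the grey line for the level runs from 0.19 to 0.43.

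By complex, the level ratio in male cells was highest for complex IV (median 0.39, 10 of 10 higher), followed by complex V (0.30, 13 of 13), complex I (0.27, 24 of 26), complex III (0.17, 4 of 5) and complex II (0.07, 3 of 4). Set against their half-life deciles, the medians were 0.03 for IV (6 of 10 above 0), −0.05 for V (4 of 13), −0.05 for I (10 of 26), −0.10 for III (1 of 5) and −0.17 for II (1 of 4). Complex IV had the highest of the 5 medians and complexes II and III the lowest in both the age and the sex comparison, before and after this centring. The 2 comparisons share their young female samples, so this likeness is not independent. Without NDUFA4, its paralogue NDUFA4L2, the tissue isoform COX7A1 and the supercomplex factor COX7A2L, complex IV had medians of 0.10 by age (4 of 6 higher) and 0.33 by sex (6 of 6), and after decile centring of 0.07 and −0.08. The last of these was below the centred medians of complexes I and V, so by sex its first place after centring was lost without these 4 genes.

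Complex IV holds pairs of isoforms that are used in different tissues or conditions. COX7A1, the form known from heart and skeletal muscle, had synthesis rates of 18.1 in young and 29.7 in old female cells, while in the sex table they were 18.1 (young female) and 34.1 (young male). Its half-life was shorter in both comparisons, with log2 ratios of −0.59 and −0.41. These share the young female samples, whose half-life for it lay beyond 24 h. The ubiquitous form COX7A2 had synthesis rates of 81.2 and 98.1 by age and 76.0 and 87.1 by sex. Levels of COX7A1 had log2 ratios of 0.13 by age and 0.51 by sex, and those of COX7A2 were 0.06 and 0.28. NDUFA4L2, a paralogue induced by low oxygen through HIF-1, had synthesis rates of 533.5 and 606.6 by age and of 510.1 and 722.7 by sex, and half-lives of 18.1 and 20.1 h by age and 18.0 and 24.3 h by sex. NDUFA4 itself had level ratios of 0.17 by age and 0.43 by sex, lower in each case than NDUFA4L2. COX7B and NDUFB11, which are encoded on the X chromosome in mammals, had male to female level ratios of 0.33 each, inside the range of the autosomal members.

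The genes around the respiratory chain had shorter half-lives than its subunits. In young female cells of the age table the median was 4.70 h for 46 listed assembly factors and regulators, 7.77 h for 21 enzymes of the TCA cycle outside complex II and 2.09 h for 12 regulators of mitochondrial gene expression such as NRF1 and GABPA. The 13 genes encoded in mitochondrial DNA were not analysed here. With age 2 of the 46 assembly factors were past 2-fold in at least 1 quantity, as were 9.47% of all genes. LYRM7, which helps to insert the Rieske protein into complex III, passed in synthesis rate (12.7 in young and 27.1 in old cells), while its half-lives were 19.0 and 10.9 h and its level ratio was 0.30. PET117, a factor of complex IV, had half-lives of 0.647 and 0.0673 h, but its young female half-life in the other table was 0.0694 h, so the estimate moved as much between tables. No TCA enzyme and no regulator was past 2-fold with age, and TCA enzymes had a median log2 level ratio of −0.12 with 4 of 21 higher, beside 50.7% of all genes.

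In male cells 13 of the 46 assembly factors were past 2-fold in at least 1 quantity, as were 16.1% of all genes. In half-life 6 were longer and 3 shorter, beside 7.58% of all genes past it in either direction. In synthesis rate 3 were higher and 7 lower, beside 12.2%, and in level 2 were lower, beside 4.61%. PET117 counts among the longer half-lives (0.0694 h in female, 0.284 h in male) and the lower synthesis rates (1618 and 416.7). Its young female values in the other table were 0.647 h and 183.6, against which both directions turned. Those with half-lives of at least 1 h in both groups and a longer half-life were CMC2 (4.92 to 29.5 h), TMEM126A (12.1 to 35.7 h), COA1 (9.84 to 28.1 h), COA8 (6.05 to 14.1 h) and COX20 (16.5 to 34.0 h), factors of complexes I and IV. NDUFAF5 and NDUFAF6, factors of complex I, were past it in synthesis rate (−1.23 and −1.10). NDUFAF4 and NDUFAF7, also of complex I, had level ratios of −1.11 and −1.15, and the male half-life of NDUFAF4 was 0.898 h. The other 4, SDHAF2, SCO2, COA7 and PET117, had half-lives under 1 h in at least 1 group, down to 0.019 h. As a list the assembly factors had a median level ratio of 0.01 with 23 of 46 higher, beside 0.29 for the subunits; the difference could not be tested. CS, the citrate synthase of the TCA cycle, had half-lives of 2.75 and 5.63 h, and MYC had synthesis rates of 2951 and 1275. The TCA enzymes had a median level ratio of 0.11 with 14 of 21 higher and longer half-lives in 20 of 21. The regulators had a median level ratio of −0.16, with 3 of 12 higher in male cells. Of all genes 50.5% had higher levels and 77.3% longer half-lives. In the 4 deciles with the shortest half-lives (median old female half-lives of 0.869 to 2.20 h) the median level ratio of all genes was between −0.35 and −0.18.

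Other large housekeeping machines gave a scale for these values. Cytosolic ribosomal protein genes (66 listed) had a median young female half-life of 34.5 h, proteasome subunits (35) one of 9.00 h and mitochondrial ribosomal protein genes (64) one of 3.69 h, beside 16.0 h for the respiratory chain. Mitochondrial ribosomes make the mitochondrially encoded partners of the same complexes, so the 2 nuclear gene sets that serve the chain lay more than 4-fold apart in half-life. With age the median log2 level ratio was 0.31 for cytosolic ribosomal proteins, 0.01 for mitochondrial ribosomal proteins and −0.18 for the proteasome, beside −0.03 for the respiratory chain. In male cells it was 0.41, 0.08 and 0.02, beside 0.29. After decile centring the male medians were −0.02, 0.07 and −0.14, beside −0.06. None of these differences between sets could be tested with group values.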

How the data were processed

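The tables hold the authors' deposited group values: 1 synthesis rate and 1 half-life per gene and group, and 0 columns of values per sample. Per the submitters' processing notes, cutadapt 4.5, STAR 2.5.3 and genome build EquCab3.0 were used; the annotation, kinetic model, gene filter and the way samples were combined are not given in the sources used here. Depth is unknown, and whether samples came from separate animals is not stated. The group headed Young was read as young female, because only young female samples name that table in the labels. Units are not stated; hours were taken for half-lives, because all columns end at 69.3, a decay rate of 0.01 per h.

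Log2 ratios were computed within a table (Python 3.11.15, pandas 2.3.3, numpy 2.4.6, scipy 1.17.1), with no pseudocount or filter. The implied level assumes constant RNA levels during labelling. Ratios of at least 1 in size counted as past the fold. No test was possible; the calculations were checked on simulated data. Gene names were matched to RefSeq symbols (59 of 59), used for names only, because the assemblies differ. Named genes were the extremes of each ratio, members past the fold, the ends of each complex, complex II, the cytochromes and isoform pairs; others were named after their values were seen. The values of 1 member are not reported here on their own; counts and medians include it. Members and lists were chosen with earlier results of these data known.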

Additional observations from a re-analysis of the deposited data

How the results depend on the processing

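A change by more than 1.5 times in a count, or by more than 0.05 log2 units in a median, was treated as a shift; of 75 alternative values 48 stayed within these limits and 27 did not. No paired analysis was possible because the tables hold no values per sample; leaving out a replicate was impossible for the same reason. At a threshold of 0.5, by age 4 members passed for half-life and 4 for synthesis rate, and by sex 26, 16 and 7 for half-life, synthesis rate and level. Centring on the median of all genes gave age medians of 0.027 for half-life and −0.040 for synthesis rate, both of the opposite sign. By sex it gave 0 members past the fold and a median of 0.16 for half-life, and 1 member (COX7A1) and 0.11 for synthesis rate, again of the opposite sign. With the other table's young female values the age medians were 0.10 for synthesis rate and 0.033 for level, and the sex medians −0.23 and 0.23. Half-lives of 1 to 24 h left 32 members by sex, 0 past the fold for half-life, and a level median of 0.19. The upper 75% by synthesis rate left 40 members by sex, 1 past the fold for half-life, and a level median of 0.24. Centring within half-life deciles gave, by sex, 0 members past the fold and a median of 0.0034 for half-life (30 above 0), −0.042 for synthesis rate and −0.056 for level (22 above 0). The alternatives on members above 0 and on the make-up of complexes I and IV were chosen after seeing the data. Depth is unknown, so its limit on any value cannot be stated, and the causes of these shifts were not tested.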
